A study of Mus musculus with 12 samples.

Results

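The genes that regulate the oxidant-responsive transcription factor NRF2 were examined together with Nqo1, a classical NRF2 target, in cells taken from mice with acute kidney injury. The 8 genes were Nfe2l2, Nfe2l1, Keap1, Bach1, Mafg, Mafk, Sqstm1 and Nqo1, and they were found by symbol. All 8 were present among the 50433 genes of the table for tubular epithelial cells (TECs) and among the 50434 genes of the table for polymorphonuclear neutrophils (PMN).

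Adult male C57BL/6J wild-type mice had both renal pedicles clamped and released, which produced ischemia-reperfusion injury (IRI), and were then given either glutamine, as a dipeptide, or saline vehicle into a vein. All 4 groups had IRI, so no uninjured level of any gene was measured. Cells were isolated 24 hours after IRI. TECs were sorted from the kidney as cells without the leukocyte antigen CD45 and with Prominin-1, and PMN were taken from peripheral blood. Each of the 4 groups had 3 libraries. TEC vehicle libraries carry the replicate numbers 3, 4 and 5 in their labels and TEC glutamine libraries the numbers 1, 2 and 3, whereas PMN libraries were numbered in order of deposit only. The labels do not say whether each library came from a separate mouse, so p-values measure the spread between these libraries.

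NRF2, encoded by Nfe2l2, is a transcription factor that is made continuously and destroyed continuously. KEAP1 holds NRF2 in the cytoplasm and hands it to a CUL3 ubiquitin ligase, and oxidants or electrophiles that modify KEAP1 let new NRF2 reach the nucleus. There it pairs with a small MAF protein on antioxidant response elements and drives genes for glutathione, thioredoxin, quinone and heme handling, a program studied in the kidney for its part in ischemic tubular injury. BACH1 competes with NRF2 for the same elements and represses them, and p62, encoded by Sqstm1, draws KEAP1 into autophagy. Since NRF2 is set largely by protein turnover, its mRNA is not a measure of its activity.

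Total estimated counts ranged from 5397370 to 10223461 in TEC libraries and from 20225246 to 21878446 in PMN libraries. The TEC glutamine replicate 2 library was the shallowest. The 10 genes with the most counts held between 19.2% and 22.9% of the counts of TEC vehicle libraries. In TEC glutamine libraries that share was between 27.6% and 28.5%, and its bearing on the values below was not tested. Counts were expressed as CPM, the count of a gene relative to its library total and brought to a common size, after scaling by the trimmed mean of M values (TMM). Proximal tubule markers summed to between 4343 and 6170 CPM in TEC vehicle libraries and to between 3744 and 5756 CPM in TEC glutamine libraries, with all 10 markers above 0. The 3 general leukocyte markers summed to between 3.55 and 7.47 CPM in TEC vehicle libraries. In TEC glutamine libraries they summed to between 6.77 and 28.2 CPM, highest in glutamine replicate 2. The 5 endothelial markers summed to between 280 and 377 CPM in TEC vehicle libraries and between 240 and 355 CPM in TEC glutamine libraries. Erythroid markers, mainly hemoglobin genes, reached 4381 CPM in TEC vehicle replicate 5 and 6683 CPM in TEC glutamine replicate 2, against 1593 CPM or less in each of the other TEC libraries. The 10 neutrophil markers summed to between 21618 and 69961 CPM over the PMN libraries, and the 9 monocyte and macrophage markers, which include Cd74 and Lyz2, to between 10785 and 22396 CPM. Among PMN libraries, endothelial markers reached 1739 CPM in vehicle replicate 2 against 59.5 CPM or less in the others, and vehicle replicate 1 had 1006 CPM of thick ascending limb and 222 CPM of distal convoluted tubule markers. The part of other cells in the values below was not tested. In such bulk samples, a change in cell number of 1 type and a change in RNA per cell cannot be told apart.

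None of the 8 genes differed between glutamine and vehicle in TECs at an adjusted p below 0.05 (edgeR's quasi-likelihood test, Benjamini-Hochberg adjustment over 14734 genes), and the same test called 0% of all genes. At an unadjusted p below 0.05, edgeR called 1879 genes in TECs. DESeq2 called 308 at an adjusted p below 0.05 and limma-voom called 0, and none of the 8 genes was among those that DESeq2 called. Before adjustment, 2 of the 8 genes, Nqo1 and Nfe2l1, were lower with glutamine, against a background of 5.52% of all genes tested. Mafk was higher, 1 of 8 genes against 7.23% of all genes. When each library was left out in turn, an unadjusted p below 0.05 by edgeR remained in 3 of 6 fits for Nqo1, in 2 of 6 for Nfe2l1 and in 2 of 6 for Mafk, and neither Nqo1 nor Nfe2l1 had it without vehicle replicate 4, glutamine replicate 2 or glutamine replicate 3. With TMM factors computed without predicted, Rik and sensory receptor genes, the unadjusted p by edgeR was 0.0554 for Nqo1 and 0.0509 for Nfe2l1, and without an expression filter it was 0.0547 for Mafk. Without overlap between the groups, 1 of the 8 genes was lower (Nfe2l1, background 9.82%) and 1 was higher (Mafk, background 9%). The 8 genes divided evenly, with 4 on each side of 0.

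**Figure D1:**
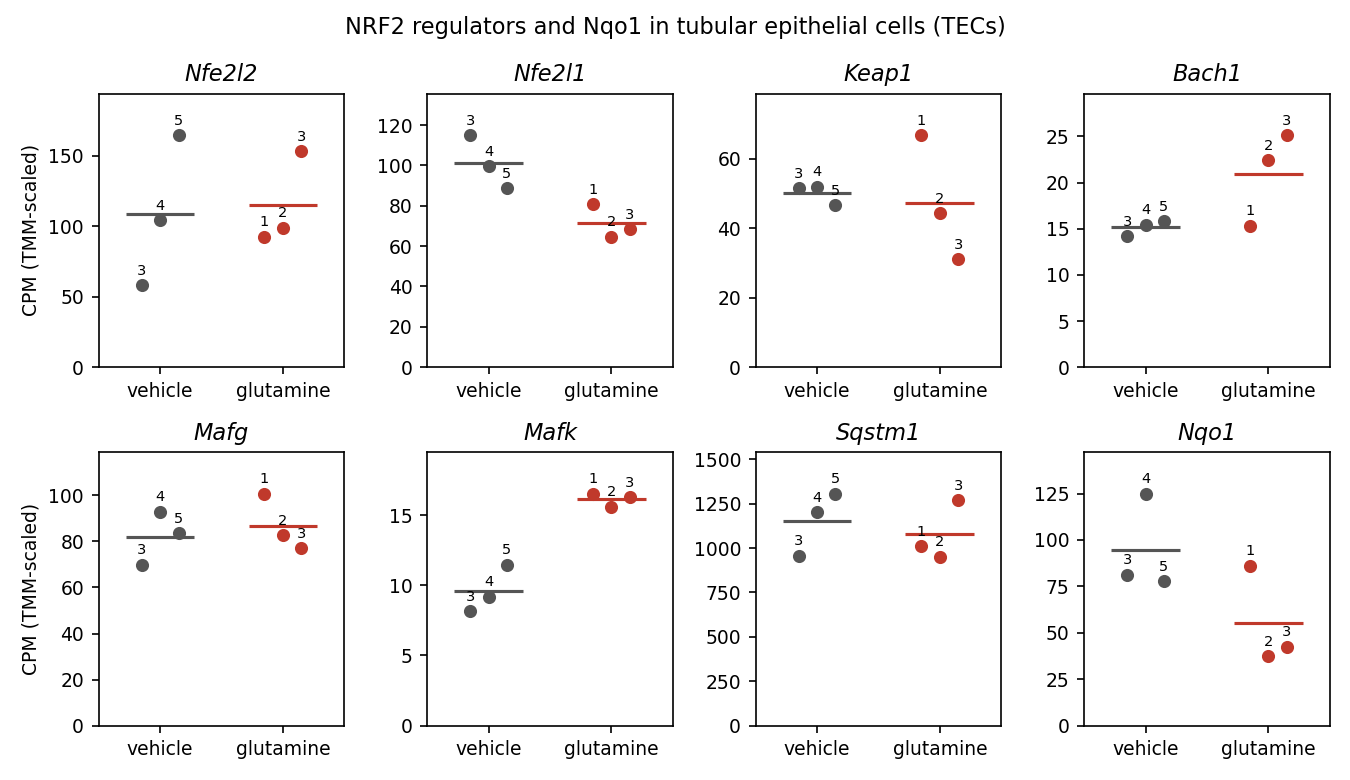
Levels of the 8 genes in TECs, in TMM-scaled CPM on the vertical axis, with 1 point per library labelled by its replicate number and a line at the mean of the 3 libraries. Mafk and Nfe2l1 have no overlap between the groups, and the Nqo1 point of glutamine replicate 1 lies among the vehicle points.

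Nqo1 encodes NAD(P)H quinone dehydrogenase, which reduces quinones by the transfer of an electron pair and so avoids reactive semiquinones. The gene lies on the minus strand at chr8:107388225-107403206 (GENCODE M21, GRCm38). In TECs its level was 81.3, 125 and 77.8 CPM in vehicle replicates 3, 4 and 5, and 86.2, 37.4 and 42.6 CPM in glutamine replicates 1, 2 and 3. The glutamine libraries 2 and 3 thus lay below every vehicle library, whereas glutamine replicate 1 lay within the vehicle range, so the groups overlapped. The mean was 94.7 ± 26.2 CPM under vehicle and 55.4 ± 26.8 CPM under glutamine (n = 3, SD). The log2 fold change was -0.77 (SE 0.33, adjusted p = 0.366, unadjusted p = 0.0388, edgeR's quasi-likelihood test), and the exact permutation test over the 6 libraries gave p = 0.3, where 0.1 is the smallest that 3 against 3 can give. Leaving out 1 library moved it between -1.24 and -0.52. The value was -1.24 without glutamine replicate 1, with an adjusted p of 0.362 by edgeR, and -0.52 without vehicle replicate 4. In glutamine replicate 2, where Nqo1 was lowest, the erythroid sum was the highest of the 6 libraries, and in glutamine replicate 3, where Nqo1 was 42.6 CPM, the erythroid sum was 965.7 CPM.

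The 250 bases before the start of Nqo1 were printed because this gene is the target read out here, and they occupy chr8:107403206-107403455 on the minus strand (RefSeq, GRCm38.p6). The capitals mark TATAAA, searched on the gene's own strand and present in 8.32% of the 32851 RefSeq windows of 300 bases.
Nqo1: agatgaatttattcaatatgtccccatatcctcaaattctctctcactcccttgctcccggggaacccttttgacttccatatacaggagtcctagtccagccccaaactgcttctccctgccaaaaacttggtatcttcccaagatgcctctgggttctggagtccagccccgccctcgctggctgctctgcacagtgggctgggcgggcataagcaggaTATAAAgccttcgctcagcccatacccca
The letters TGACNNNGC, the core of the antioxidant response element, were searched on both strands of windows from 250 bases before to 50 bases after each start, and were found in 12.4% of the 32851 windows. They were not in this window of Nqo1. No match says only that the letters are not in this window.

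Among the genes that encode NRF2 partners and NRF2 itself, 3 of the 8 held the letters. They are shown because these genes make the proteins that bind such letters, with the match in capitals as it reads on the gene's strand. The Nfe2l2 stretch lies at chr2:75704879-75704913, minus strand, with its match beginning 240 bases before the start. Mafg is at chr11:120633745-120633785, minus strand, with the match 222 bases before the start, on the opposite strand. Mafk is at chr5:139791507-139791547, plus strand, with the match 13 bases before the RefSeq start, also on the opposite strand. The GENCODE start of Mafk, at 139791513, lies before this match.
Nfe2l2: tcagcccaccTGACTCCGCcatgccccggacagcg
Mafg: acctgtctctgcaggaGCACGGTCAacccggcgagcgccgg
Mafk: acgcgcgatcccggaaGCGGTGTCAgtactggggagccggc
Keap1, Bach1, Sqstm1 and the 5 windows of Nfe2l1 did not hold these letters. A match is a description of the sequence and not a measured binding site.

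Nfe2l2 (chr2:75675513-75704641, minus strand) varied more within a treatment than between treatments in TECs. It was 58.1, 104 and 165 CPM in vehicle replicates 3, 4 and 5, and 92.4, 98.9 and 153 CPM in glutamine replicates 1, 2 and 3. The vehicle libraries alone spanned 2.83-fold, and every glutamine library fell inside that span. The log2 fold change was 0.08 (SE 0.34, adjusted p = 0.945, edgeR's quasi-likelihood test). It was -0.23 without vehicle replicate 3 and -0.19 without glutamine replicate 3, so that its sign rested on single libraries.

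Nfe2l1 encodes NRF1, a related factor that is anchored in the endoplasmic reticulum and drives proteasome genes when proteasome capacity falls. The gene lies at chr11:96817414-96829968 on the minus strand. In TECs it was 115, 99.5 and 88.6 CPM in vehicle replicates 3, 4 and 5, and 80.8, 64.6 and 68.3 CPM in glutamine replicates 1, 2 and 3. Every glutamine library lay below every vehicle library. The means were 101 ± 13.2 and 71.2 ± 8.48 CPM (SD, n = 3), a log2 fold change of -0.50 (SE 0.20, unadjusted p = 0.0319, adjusted p = 0.348, edgeR's quasi-likelihood test). The exact permutation p was 0.1, the smallest possible. Without each library in turn the log2 fold change stayed between -0.60 and -0.41.

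The small MAF proteins MAFG and MAFK have no activation domain of their own. They serve NRF2 and NRF1 as activating partners and BACH1 as a repressing partner. Mafk (chr5:139791513-139802653, plus strand) was 8.16, 9.19 and 11.5 CPM in vehicle replicates 3, 4 and 5, and 16.5, 15.6 and 16.3 CPM in glutamine replicates 1, 2 and 3. Every glutamine library was above every vehicle library, and the glutamine libraries lay within 1.06-fold of each other. Its log2 fold change was 0.75 (SE 0.29, unadjusted p = 0.0264, adjusted p = 0.331, edgeR's quasi-likelihood test), which is 1.68-fold, and the exact permutation p was 0.1. These levels rest on between 78 and 149 counts a library, with the fewest in glutamine replicate 2. The leave-one-out values lay between 0.64 and 0.89.

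Mafg (chr11:120625117-120633600, minus strand), the more abundant small MAF, did not separate by treatment. It was 69.9, 92.8 and 83.6 CPM in vehicle replicates 3, 4 and 5, and 101, 82.6 and 76.9 CPM in glutamine replicates 1, 2 and 3. The groups overlapped, with a log2 fold change of 0.08 (SE 0.21, adjusted p = 0.902, edgeR's quasi-likelihood test). The value was -0.03 without vehicle replicate 3 and -0.04 without glutamine replicate 1.

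Bach1 (chr16:87698945-87733346, plus strand), the repressor, was 14.2, 15.4 and 15.8 CPM in vehicle replicates 3, 4 and 5, and 15.3, 22.4 and 25.1 CPM in glutamine replicates 1, 2 and 3. Glutamine libraries 2 and 3 were above every vehicle library and glutamine replicate 1 was not. These same libraries were the ones in which Nqo1 was below every vehicle library. The log2 fold change of Bach1 was 0.47 (SE 0.28, adjusted p = 0.506, edgeR's quasi-likelihood test). It was 0.31 without glutamine replicate 3 and 0.65 without glutamine replicate 1, where the unadjusted p was 0.0465 and the adjusted p 0.480 by edgeR.

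Keap1 (chr9:21229730-21239361, minus strand) was 51.5, 52.0 and 46.7 CPM in vehicle replicates 3, 4 and 5, and 66.8, 44.4 and 31.0 CPM in glutamine replicates 1, 2 and 3. The vehicle libraries lay close together, within 1.11-fold, while the glutamine libraries lay on both sides of them and spanned 2.15-fold. Its log2 fold change was -0.08 (SE 0.28, adjusted p = 0.928, edgeR's quasi-likelihood test), and 0.15 without glutamine replicate 3.

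Sqstm1 (chr11:50199366-50210827, minus strand) encodes p62, an autophagy receptor that is both a partner of KEAP1 and a known NRF2 target. It was 956.3, 1202 and 1305 CPM in vehicle replicates 3, 4 and 5, and 1011, 950.7 and 1268 CPM in glutamine replicates 1, 2 and 3. The groups overlapped almost completely. The log2 fold change was -0.10 (SE 0.21, adjusted p = 0.872, edgeR's quasi-likelihood test), with leave-one-out values between -0.24, without glutamine replicate 3, and -0.01, without vehicle replicate 5.

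Levels per kilobase of exon depend on the length taken for each gene, so a comparison between genes is approximate. On this scale Sqstm1 had the highest level of the 8 genes in TECs at 332 ± 48.1 CPM per kb (SD, n = 6 libraries). Nqo1 followed at 48.3 ± 20.6 CPM per kb and Nfe2l2 at 29.5 ± 10.5 CPM per kb, and Nqo1 was the higher of this pair in 4 of 6 libraries. Those were the 3 vehicle libraries and glutamine replicate 1. Nfe2l1 and Mafg, at 15.8 ± 3.51 and 15.04 ± 1.96 CPM per kb, changed places between the groups, Nfe2l1 being the higher in the 3 vehicle libraries and Mafg the higher in the 3 glutamine libraries. Keap1 was at 10.4 ± 2.49 CPM per kb, below Mafg in 6 of 6 libraries. The lowest levels were those of Mafk, at 3.30 ± 0.96 CPM per kb, and Bach1, at 2.92 ± 0.74 CPM per kb, with Mafk higher in 4 of 6 libraries. The order of the means over 6 libraries was the same when the longest coding transcript replaced the union of exons. With that transcript, Nqo1 was below Nfe2l2 in vehicle replicate 5 and glutamine replicates 2 and 3.

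**Figure D2:**
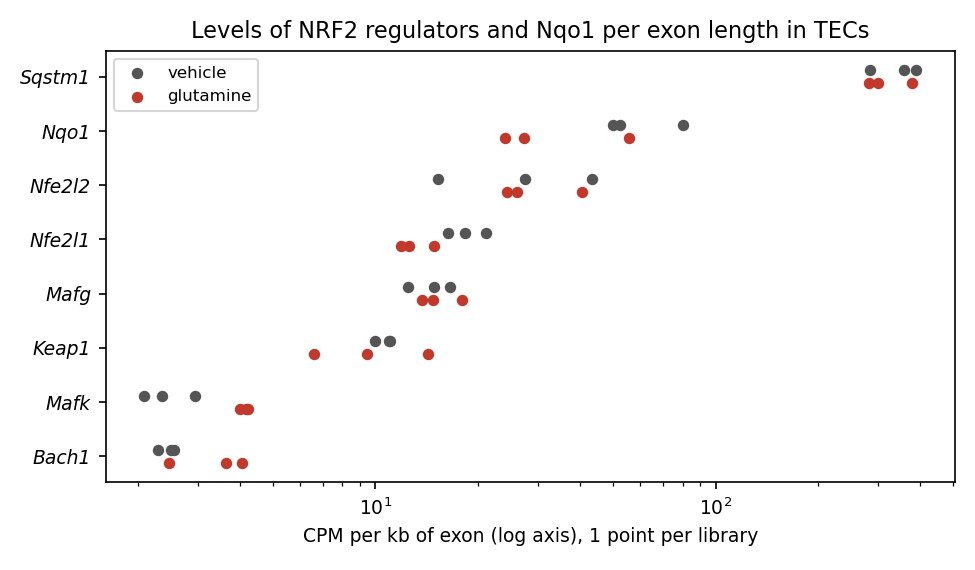
Levels of the 8 genes in TECs per kilobase of exon, on a logarithmic horizontal axis in CPM per kb, with 1 point per library, grey for vehicle and red for glutamine. Sqstm1 lies above all other genes in 6 of 6 libraries, and Mafk and Bach1 lie at the bottom.

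The other genes of the pathway were described from lists of known NRF2 regulators and targets. Of 36 listed target genes, 34 were tested in TECs, Aldh3a1 was below the expression filter and G6pdx was not analysed here. Of these 34, 27 were lower and 7 higher with glutamine, with a median log2 fold change of -0.50, against 49.4% lower and a median of 0.01 over all genes. The adjusted threshold of edgeR called 0 of the 34. At an unadjusted p below 0.05, edgeR gave 16 lower and 2 higher, where the backgrounds were 5.52% and 7.23%. With TMM factors computed without predicted, Rik and sensory receptor genes, edgeR gave 12 lower and 2 higher. Groups without overlap were found for 14 lower and 3 higher target genes, against 9.82% and 9% of all genes. In the same libraries Havcr1, the kidney injury molecule of the proximal tubule, was 478 ± 346 CPM under vehicle and 56.4 ± 34.4 CPM under glutamine (n = 3, SD), and the water channel Aqp1 was 2381 ± 1173 and 1439 ± 516 CPM. Other genes of the proximal tubule list were higher with glutamine, such as Slc34a1 at 1658 ± 613 and 2410.3 ± 407 CPM and Slc22a6 at 242 ± 37.8 and 367 ± 51.1 CPM. Markers of the distal convoluted tubule summed to between 77.8 and 126 CPM with vehicle and between 122 and 224 CPM with glutamine. The sums of the 4 thick ascending limb markers overlapped, at 1037 to 2037 CPM with vehicle and 1286 to 2266 CPM with glutamine. Within that list Umod was 1387 ± 525 and 1527 ± 498 CPM (SD, n = 3), whereas Slc12a1 was 40.3 ± 3.93 and 99.6 ± 45.0 CPM. The part of these markers in the target gene values was not tested. Some of these genes, such as Gsr, Srxn1, Mgst1 and Hmox1, were chosen for discussion by the study from the same libraries. The list is therefore not independent evidence of a direction. The study describes Srxn1 and Hmox1 as raised by glutamine in TECs. Hmox1 was higher here, but Srxn1 was lower, at 827 ± 149 CPM under vehicle and 424 ± 190 CPM under glutamine (n = 3, SD). The log2 fold change of Srxn1 was -0.96 (SE 0.30, adjusted p = 0.244, edgeR's quasi-likelihood test). Nqo1 lay inside the spread of the target genes, with 8 of them lower and 26 higher than it in log2 fold change.

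**Figure D3:**
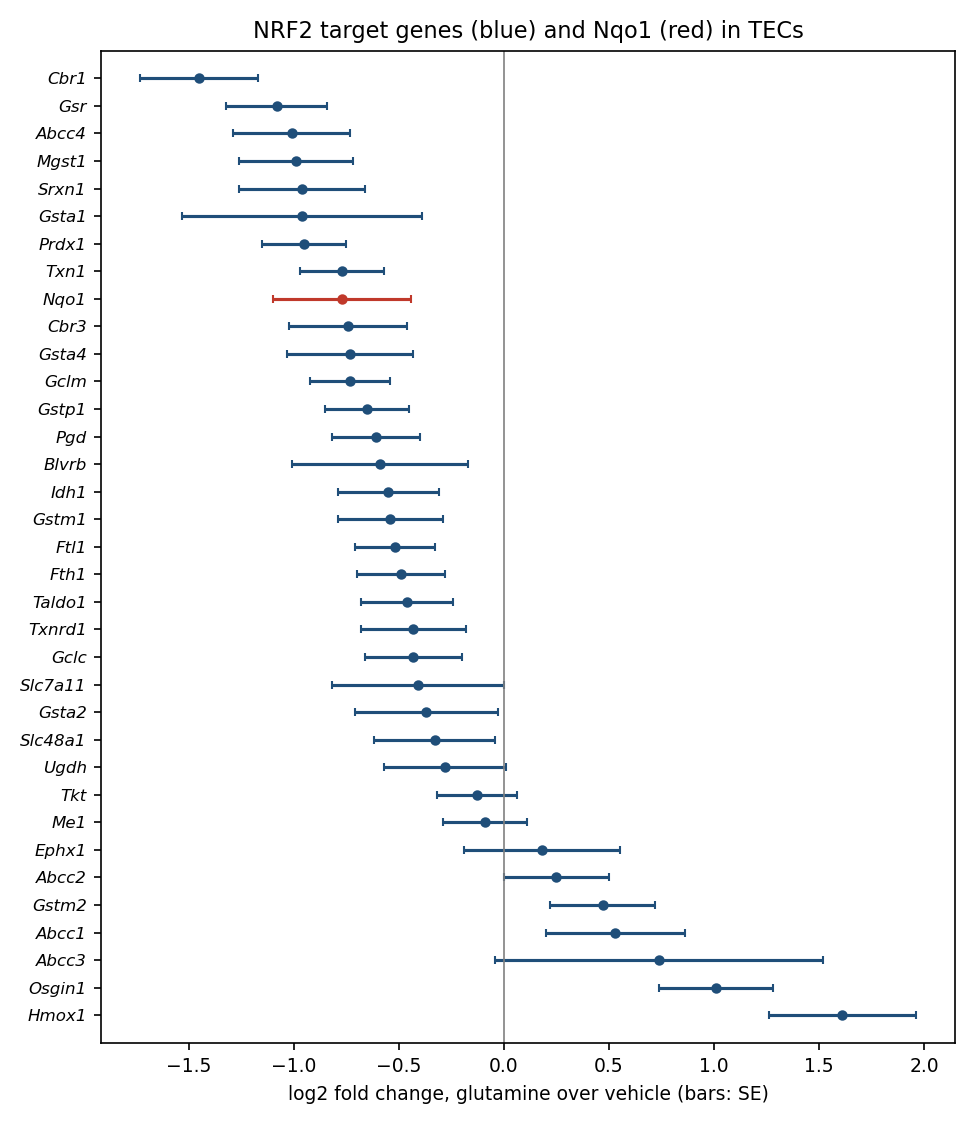
Log2 fold change of glutamine over vehicle in TECs for the 34 tested NRF2 target genes (blue) and Nqo1 (red), ordered by value, with bars of 1 SE from edgeR. Of the blue points, 27 lie left of 0, and Hmox1 and Osgin1 lie farthest to the right.

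The lowest fold change among target genes was that of Cbr1, a carbonyl reductase, with 57.3 ± 16.8 CPM under vehicle and 21.0 ± 4.86 CPM under glutamine (n = 3, SD). Its log2 fold change was -1.45 (SE 0.28, adjusted p = 0.155, edgeR's quasi-likelihood test). Gsr, which encodes glutathione reductase, followed with 549.8 ± 122 and 259 ± 63.0 CPM and a log2 fold change of -1.08 (SE 0.24, adjusted p = 0.178, edgeR's quasi-likelihood test). In both genes every glutamine library lay below every vehicle library, in Cbr1 at 16.6 to 26.2 against 40.2 to 73.8 CPM.

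At the other end stood Hmox1, heme oxygenase 1, the target gene on which BACH1 repression is best known. It was 93.2 ± 41.2 CPM under vehicle and 284 ± 103 CPM under glutamine (n = 3, SD), a log2 fold change of 1.61 (SE 0.35, adjusted p = 0.178, edgeR's quasi-likelihood test). Osgin1, an oxidative stress-induced growth inhibitor, was 44.4 ± 14.1 and 89.5 ± 20.2 CPM, a log2 fold change of 1.01 (SE 0.27, adjusted p = 0.217, edgeR's quasi-likelihood test). In both genes, every glutamine library lay above every vehicle library, for Hmox1 at 198 to 398 against 53.3 to 136 CPM. The target genes therefore did not share 1 direction.

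The number of target genes below the whole vehicle range was counted for each glutamine library. It was 19 of 34 in glutamine replicate 1, 27 of 34 in replicate 2 and 19 of 34 in replicate 3, or 55.9%, 79.4% and 55.9%. Over all 14734 genes the corresponding shares were 28.3%, 30.5% and 27.0%. Glutamine replicate 1, in which Nqo1 was within the vehicle range, thus had as many target genes below that range as replicate 3. When single libraries were left out, between 26 and 28 of the 34 target genes were lower, and between 11 and 16 were lower at an unadjusted p below 0.05 by edgeR. The lowest of these, 11, was the count without glutamine replicate 2, the library with the highest leukocyte and erythroid sums. These counts were added after the data had been seen.

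The promoter letters were counted in the same lists. TGACNNNGC was held by 11 of the 28 target genes that had a RefSeq window, against 3781 of 27025 genes overall. The longer TGACTCAGC was rarer, in 0.454% of windows, and the target genes Prdx1 and Me1 held it. They are shown because they carry the fullest form of the letters among the target genes, Prdx1 at chr4:116685450-116685490 (plus strand, match 133 bases before the start, opposite strand) and Me1 at chr9:86695896-86695936 (minus strand, match 6 bases before the start).
Prdx1: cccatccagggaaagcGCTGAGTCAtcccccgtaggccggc
Me1: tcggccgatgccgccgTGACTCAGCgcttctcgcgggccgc
Of this pair, Prdx1, a peroxiredoxin, was 2494 ± 405 CPM under vehicle and 1292 ± 106 CPM under glutamine (n = 3, SD), with a log2 fold change of -0.95 (SE 0.20, adjusted p = 0.178, edgeR's quasi-likelihood test). Me1, malic enzyme, was 91.4 ± 0.50 and 86.0 ± 15.7 CPM, with a log2 fold change of -0.09 (SE 0.20, adjusted p = 0.888, edgeR's quasi-likelihood test). This pair, named after its letters and values had been seen, thus shared the letters and had different values.

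The list of the KEAP1-CUL3 ligase and of other routes of NRF2 degradation had 13 genes, all tested in TECs. Of these, 10 were lower and 3 higher, with a median log2 fold change of -0.15, and 2 were lower at an unadjusted p below 0.05 by edgeR. Over all genes, 49.4% were lower and 5.52% were lower at that p. Rbx1, the RING subunit of the ligase, was 180 ± 49.3 CPM under vehicle and 113 ± 13.8 CPM under glutamine (n = 3, SD), a log2 fold change of -0.67 (SE 0.24, adjusted p = 0.292, edgeR's quasi-likelihood test). Btrc, a substrate receptor of the route that does not need KEAP1, was at -0.54 (SE 0.43). Gsk3b and Cul1, of the same route, were at 0.07 (SE 0.22) and 0.13 (SE 0.27).

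Among proteins that compete for KEAP1 or assist NRF2, 12 of 15 genes were tested, 8 were higher and the median log2 fold change was 0.34. Dpp3, whose protein binds KEAP1 in the place of NRF2, was 62.05 ± 7.75 CPM under vehicle and 39.8 ± 8.95 CPM under glutamine (n = 3, SD), a log2 fold change of -0.64 (SE 0.23). Pgam5, another KEAP1 binding protein, was at -0.50 (SE 0.34). The coactivators Crebbp and Ep300, which acetylate histones at NRF2 targets, were at 0.54 (SE 0.23) and 0.53 (SE 0.25). By edgeR's quasi-likelihood test the adjusted p was 0.358 for Crebbp and 0.414 for Ep300.

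Partners of p62 in selective autophagy numbered 15, all tested, with 8 lower, 7 higher and a median log2 fold change of -0.02. The highest were Gabarapl1, a ubiquitin-like protein of the autophagosome membrane, at 0.50 (SE 0.19), and Ulk1, the kinase that starts autophagy, at 0.50 (SE 0.23). The lowest were Wdfy3, an autophagy scaffold, at -0.38 (SE 0.26), and Gabarapl2 at -0.33 (SE 0.26). Of the genes that release and process NRF1, 6 of 8 were tested, 3 on each side of 0. Ngly1, the glycanase that NRF1 activation needs, was at -0.37 (SE 0.30), and Vcp, the segregase that extracts it, at -0.21 (SE 0.20). Sel1l was at 0.18 (SE 0.19) and Fbxw7, a substrate receptor that degrades NRF1, at 0.46 (SE 0.27), so that these genes did not follow Nfe2l1 as a group.

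Among related factors that pair with MAF proteins or belong to the MAF family, Nfe2 and Nfe2l3 were below the filter in TECs. Maf was at -0.17 (SE 0.21), Maff, the third small MAF, at -0.03 (SE 0.27) and Bach2 at 0.28 (SE 0.40) in log2 fold change. None of these had groups without overlap.

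The genes most like Nqo1 over the 6 TEC libraries, by Pearson's r of log2(CPM + 1), were Tmem184b (0.991), Selenoi (0.988), Myg1 (0.982), Hps4 (0.981) and Zfp397 (0.981). Those most like Nfe2l2 were Wac (0.992), Arap1 (0.992), Tma16 (0.990), Lrp3 (0.989) and Fam161b (0.988). Of 14733 genes compared, 177 exceeded 0.9 with Nqo1 and 259 with Nfe2l2. All of these points share the libraries, their depth and the treatment groups.

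In PMN, 7 of the 8 genes were tested and none passed an adjusted p below 0.05 (edgeR's quasi-likelihood test, Benjamini-Hochberg adjustment over 10130 genes), where the test called 0% of genes. The unadjusted count was 346 genes, DESeq2 called 237 and limma-voom 0, and none of the 7 genes was among those of DESeq2. Nfe2l2 was higher without overlap, 1 of 7 genes, against a background of 5.87%. At an unadjusted p below 0.05 by edgeR it was again 1 of 7, against 2.04%. That p remained below 0.05 in 2 of 6 fits that left out 1 library, those without vehicle replicate 1 and without glutamine replicate 2, and lay up to 0.0783 in the others.

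**Figure D4:**
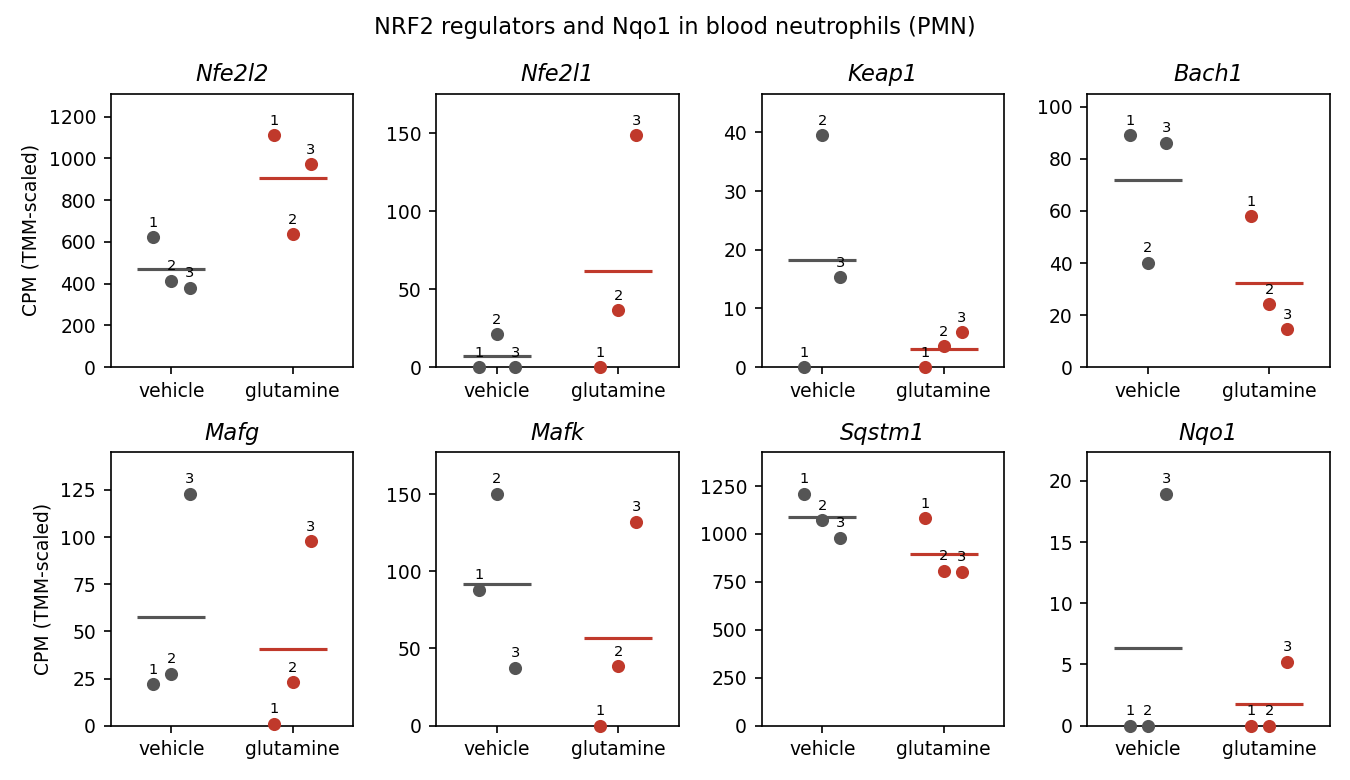
Levels of the 8 genes in PMN, in TMM-scaled CPM on the vertical axis, with 1 point per library labelled by its replicate number and a line at the mean of the 3 libraries. Nfe2l2 separates by treatment, and Nfe2l1, Keap1, Mafk and Nqo1 have libraries at 0.

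Nfe2l2 in PMN was 622, 413 and 380.1 CPM in vehicle replicates 1, 2 and 3, and 1111, 637 and 972 CPM in glutamine replicates 1, 2 and 3. Every glutamine library was above every vehicle library, although glutamine replicate 2 exceeded vehicle replicate 1 by little. The means were 472 ± 131 and 906 ± 243 CPM (SD, n = 3), a log2 fold change of 0.94 (SE 0.33, unadjusted p = 0.0236, adjusted p = 0.99996, edgeR's quasi-likelihood test), which is 1.92-fold. The exact permutation p was 0.1. DESeq2 gave an adjusted p of 0.161, and the leave-one-out values lay between 0.75 and 1.16. The general leukocyte marker Ptprc was 474 ± 141 CPM with vehicle and 890.5 ± 209 CPM with glutamine in the same libraries. Laptm5, of the same list, was 1130 ± 83.2 and 1743 ± 325 CPM, whereas Coro1a was 1144 ± 382 and 1052 ± 113 CPM. These 3 markers summed to between 2120 and 3267 CPM with vehicle and between 3296 and 4008 CPM with glutamine. Of 7 lymphocyte markers, Cd79b was 0 CPM in the vehicle libraries and 24.1 ± 6.26 CPM with glutamine, and the means of the others were 3.11 CPM or less in both groups, with Cd3e and Nkg7 at 0. Eosinophil markers summed to 0 CPM in the vehicle libraries and to 0, 50.8 and 34.7 CPM in glutamine replicates 1, 2 and 3. The neutrophil markers summed to between 29575 and 51202 CPM with vehicle and between 21618 and 69961 CPM with glutamine. Genes of that list went both ways. Mmp9 was 540.2 ± 24.2 CPM with vehicle and 1109 ± 330.4 CPM with glutamine, and Ly6g 128 ± 48.3 and 84.2 ± 31.6 CPM. S100a8 was 18699 ± 6439 and 16410 ± 11089 CPM, and Retnlg 6798 ± 1743 and 6772 ± 4676 CPM. Monocyte and macrophage markers summed to between 10785 and 20708 CPM with vehicle and between 11530 and 22396 CPM with glutamine, and its genes also went both ways. Csf1r was 362 ± 96.5 CPM with vehicle and 641 ± 296 CPM with glutamine, and C1qa 627 ± 424 and 1338 ± 1052 CPM. Lyz2 was 3614 ± 1156 and 2966 ± 618 CPM, and Ccr2 220 ± 46.1 and 175 ± 9.89 CPM. The part of all these markers in the Nfe2l2 values was not tested.

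Sqstm1 in PMN was at 1210, 1073 and 980.9 CPM in vehicle replicates 1, 2 and 3, and 1082, 808 and 804 CPM in glutamine replicates 1, 2 and 3. Glutamine libraries 2 and 3 were below every vehicle library. The log2 fold change was -0.28 (SE 0.23, adjusted p = 0.99996, edgeR's quasi-likelihood test). Bach1 was 89.1, 40.1 and 86.3 CPM with vehicle and 58.0, 24.2 and 14.7 CPM with glutamine, with glutamine replicate 1 inside the vehicle range. Its log2 fold change was -1.15 (SE 0.91, adjusted p = 0.99996, edgeR's quasi-likelihood test), and -1.91 without glutamine replicate 1. Without that same library the value of Sqstm1 was -0.45.

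The remaining genes were present in some PMN libraries and nearly absent from others of the same group. Mafk was 88.1, 150.3 and 37.4 CPM with vehicle, and 0, 38.4 and 132 CPM with glutamine. Mafg was 22.0, 27.6 and 123 CPM with vehicle, and 0.93, 23.0 and 98.0 CPM with glutamine. Thus the highest and the lowest glutamine library differed more than the groups did, and the log2 fold changes were -0.69 (SE 1.90) for Mafk and -0.50 (SE 1.53) for Mafg. The value of Mafk was -3.93 by limma-voom, -2.27 without glutamine replicate 3 and -0.12 without glutamine replicate 1.

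Keap1 was 0, 39.5 and 15.3 CPM with vehicle, and 0, 3.61 and 5.91 CPM with glutamine, with a log2 fold change of -2.52 (SE 2.76). Nfe2l1 was 0, 21.1 and 0 CPM with vehicle, and 0.052, 36.6 and 149 CPM with glutamine, with a log2 fold change of 3.13 (SE 3.18). The value of Keap1 lay between -3.35, without glutamine replicate 3, and -1.28, without vehicle replicate 2. For both genes the SE was as large as the difference. The value of Nfe2l1 was 1.37 without glutamine replicate 3. Without vehicle replicate 2 it became 13.32, since only libraries at 0 were left in that group. That library, which held the 1 vehicle value of Nfe2l1 above 0 and the highest value of Keap1, is the one with the high endothelial markers, and their part in these values was not tested.

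Nqo1 was not tested in PMN because it did not pass the expression filter. It was listed at 0 in 4 of 6 libraries, at 18.9 CPM in vehicle replicate 3 and at 5.22 CPM in glutamine replicate 3. A count of 0 allows up to 3 counts, which corresponds to between 0.134 and 0.155 CPM in these libraries, and this limit covers counting error only.

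Per kilobase of exon, Sqstm1 and Nfe2l2 stood apart in PMN, at 296 ± 48.4 and 182 ± 77.8 CPM per kb (SD, n = 6 libraries), and Nfe2l2 was above Mafk in 6 of 6 libraries. Mafk was at 19.1 ± 15.2 CPM per kb. The other genes were at 8.74 CPM per kb or less, and Bach1, at 8.42 ± 5.06 CPM per kb, was below Mafg in 3 of 6 libraries. With the longest coding transcript in place of the exon union, Nqo1 and Keap1 exchanged the last places. Nfe2l2 in CPM was between 58.1 and 165 in TECs and between 380.1 and 1111 in PMN, and Nqo1 was at 37.4 CPM or more in every TEC library. Cell type and sequencing run cannot be told apart here, and levels between the cell types were therefore not tested.

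The NRF2 target list in PMN had 29 tested genes, 19 lower and 10 higher with glutamine, with a median log2 fold change of -0.25 against 0.00 for all genes. By edgeR, 0 passed the adjusted threshold, and 2 lower and 1 higher had an unadjusted p below 0.05, where the backgrounds were 1.37% and 2.04%. With single libraries left out, between 17 and 22 target genes were lower, between 2 and 4 at an unadjusted p below 0.05 by edgeR. The median then lay between -0.32 and -0.05. With at least 10 counts in every library, 12 of 17 genes were lower and 0 had that p by edgeR. With limma-voom, 14 of 29 were lower and the median was 0.05, so that the direction of the list depended on the tool. The KEAP1-CUL3 list had 9 of 13 genes lower, with a median of -0.13.

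The glutamine effect was compared between cell types by an interaction term (limma-voom with weights by cell type, 8950 genes tested in both). It called 0% of genes at an adjusted p below 0.05, with 627 at an unadjusted p below 0.05. The interaction in edgeR called 52, and limma-voom without weights 41. None of the 7 genes tested was called by any of these. The difference, TECs minus PMN, was 4.58 on the log2 scale for Mafk (SE 2.03, unadjusted p = 0.0398, adjusted p = 0.686, limma-voom). It was 0.92 without PMN glutamine replicate 1, the library in which Mafk was at 0, and 1.37 by edgeR. For Nfe2l2, the difference was -0.83 (SE 0.77, adjusted p = 0.942, limma-voom), with 0.08 in TECs and 0.94 in PMN. It ranged from -1.20 without TEC vehicle replicate 3 to -0.50 without TEC vehicle replicate 5. Bach1 differed by 1.66 (SE 0.90, adjusted p = 0.761, limma-voom), being 0.47 in TECs and -1.15 in PMN. The largest difference was that of Nfe2l1, at -5.63 (SE 3.58, adjusted p = 0.818, limma-voom), and it was -8.65 without PMN glutamine replicate 1 (unadjusted p = 0.00594, adjusted p = 0.689, limma-voom). This Nfe2l1 difference was -3.47 without PMN glutamine replicate 3 (limma-voom) and -3.72 by edgeR. Mafg, Keap1 and Sqstm1 differed by 1.64 (SE 1.48), 1.34 (SE 3.24) and 0.12 (SE 0.50). By edgeR the difference was 0.52 for Mafg and 2.36 for Keap1, and without PMN glutamine replicate 1 both turned negative, at -0.12 and -0.97 (limma-voom). At this spread, a difference between the cell types was not detectable at the adjusted threshold for any of these genes.

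**Figure D5:**
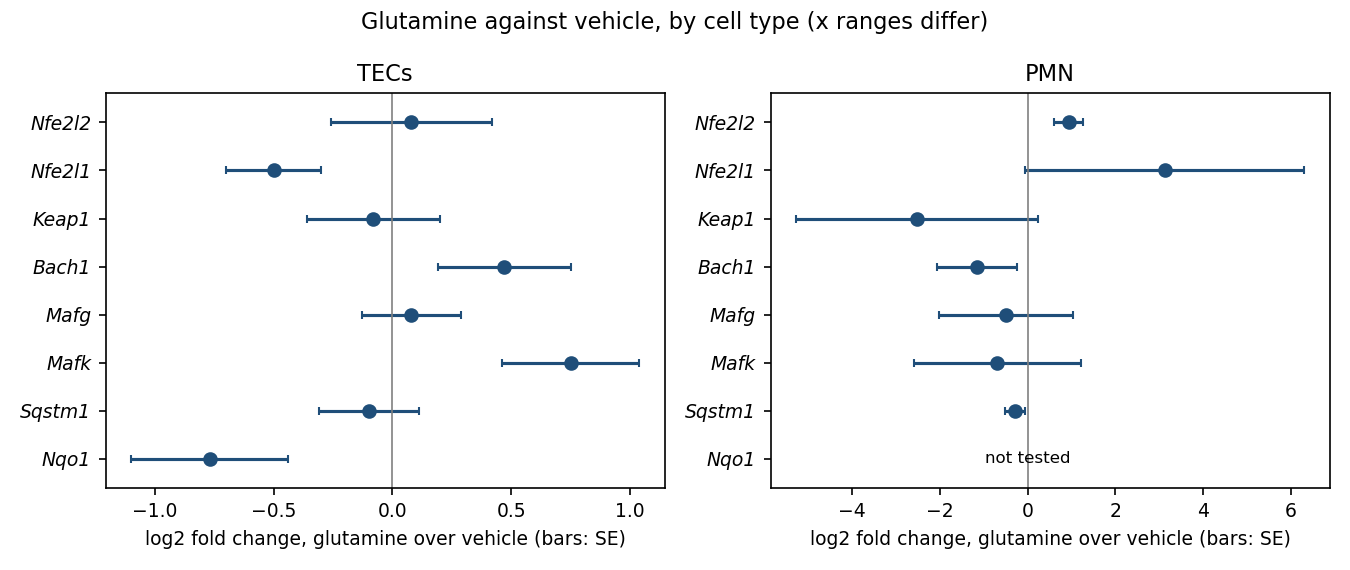
Log2 fold change of glutamine over vehicle for the 8 genes in TECs (left) and PMN (right), with bars of 1 SE from edgeR, on horizontal axes of different range. In PMN the bars of Nfe2l1, Keap1, Mafg and Mafk reach 0 or beyond, and Nqo1 was not tested.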

How the data were processed

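RNA was reverse transcribed from the polyA tail and read as single-end 50-base reads. Per the labels' processing notes, the authors used Trim Galore 0.6.4, Salmon 1.0.0, DESeq2 and mm10, and deposited 1 table of estimated counts per gene for each cell type. The deposited PMN table held 2 columns a library and had passed through a spreadsheet: 3.20% of its cells had extra points, of which the last was read as the decimal point, and 0.391% had become dates and were turned back. Its values were then used as estimated counts, and the 2 columns (r between 0.995 and 0.996) were averaged. Of 42536 PMN values of 100 or more in either column, 45 were over 100 times apart between the 2 columns. Between different PMN libraries the correlation of log2(count + 1) was 0.773 to 0.826, against 0.947 to 0.962 between TEC libraries. Estimated counts were rounded to whole numbers. Each cell type was fitted alone with edgeR 4.0.16 (filterByExpr, TMM, quasi-likelihood test, Benjamini-Hochberg) in R 4.3.3. Limma 3.58.1 gave the interaction between cell type and treatment, and DESeq2 1.42.0 was an alternative, as were other scalings and filters and the omission of each library. The edgeR and DESeq2 fits of each cell type and the limma interaction were tested on simulated data. Exact two-sided permutation tests used all 20 splits of 3 against 3 libraries. Levels per kb used exon unions of GENCODE M21. RefSeq promoter windows were matched by symbol and covered 8 of 8 genes. The genes, lists and tests were chosen with earlier results of these data known. Named were the 8 genes, the 2 highest and 2 lowest tested genes of each list in TECs, and the 5 genes most like Nqo1 and Nfe2l2, and Prdx1 and Me1 were named after their promoter letters and values had been seen. 1 listed gene is not reported here. Every column of the tables was used.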

Additional observations from a re-analysis of the deposited data

How the results depend on the processing

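Over 304 alternative values of the 8 genes' differences, 292 kept their sign and their side of the adjusted threshold and 12 changed sign, each when a single library was left out. In TECs these were Nfe2l2 (-0.23 without vehicle replicate 3 and -0.19 without glutamine replicate 3), Mafg (-0.03 without vehicle replicate 3 and -0.04 without glutamine replicate 1) and Keap1 (0.15 without glutamine replicate 3). In PMN, Mafg became 0.71 without vehicle replicate 3 and 0.01 without glutamine replicate 1. The TEC minus PMN difference of Sqstm1 became 0 without TEC vehicle replicate 3 and -0.01 without TEC glutamine replicate 3, that of Keap1 -0.56 without PMN vehicle replicate 2 and -0.97 without PMN glutamine replicate 1, and that of Mafg -0.12 without PMN glutamine replicate 1. Over all single omissions the highest or lowest values of these genes on the other side of 0 were 0.50 for Nfe2l2, 0.17 for Mafg and -0.41 for Keap1 in TECs, -2.28 for Mafg in PMN, and 4.62 for Keap1, 3.11 for Mafg and 0.32 for Sqstm1 in the difference. The number of genes called at an adjusted p below 0.05 was 0 by edgeR in TECs and became 308 with DESeq2 and 425 without an expression filter; leaving out 1 library gave between 0 and 36, with 4 without vehicle replicate 5 and 36 without glutamine replicate 2. In PMN it was 0 and became 237 with DESeq2, and the omission of 1 library gave 0 each time. The interaction called 0 genes, 52 by edgeR and 41 without weights, and 0 with any library left out. The cause of these shifts was not tested. Keap1, Mafk and Nfe2l1 did not pass the filter of 10 counts in every PMN library and have no value there. No paired analysis was possible because replicate number 3 is the 1 number common to both TEC groups and the PMN numbers follow the order of deposit. Mafk in TECs rests on 149 counts a library or fewer, and PMN values near 0 limit what can be said of Keap1, Nfe2l1 and Nqo1.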
